A study of Mus musculus with 6 samples.

Results

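The genes described here are the ephrins and their Eph receptors, the Slits and their Robo receptors, and the netrins with the receptors Unc5 and neogenin. They were chosen by gene symbol, and 35 of the 24413 genes in the deposited data carry one of these symbols. Dcc, Robo4, Ntn3, Ntn5, Epha6 and Epha10 belong to the same families. The deposited data hold no values under these symbols, so they were not analysed here. Of the 35, 25 had a mean of at least 1 FPKM (fragments scaled to gene length and library depth) over the 6 libraries and were tested. The other 10 lay below that level.

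The cells came from Achilles tendons of 3 male mice aged 12 weeks with the genotype Tppp3ECE/+;R26RtdT-CreERT2;Scx-GFP, and both groups share this genotype. They are labelled as Tppp3+ cells, and the sort used gates for tdT and GFP. The libraries held 18881989 to 26164434 fragments, as recovered from the FPKM values. The control group (3 libraries) was kept for 24 h in medium with 1% FBS. The conditioned group (3 libraries) was kept for 24 h in medium from cultured lumbar dorsal root ganglia (DRG), which hold the cell bodies of sensory neurons. These were taken from 3 male C57BL/6J mice aged 12 weeks and grew for 4 to 5 days with 5-fluoro-2-deoxyuridine and uridine, each at 20 µM. The medium was then replaced by one with 1% FBS, harvested daily and filtered. No label ties a library to an animal, so p-values reflect only how far these libraries spread, which may in part be technical. What the neurons released cannot be told apart from other changes that the ganglion cultures made to the medium.

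These families were first known for steering growing axons. Ephrins are ligands held on the cell surface, by a lipid anchor in the A class and by a transmembrane stretch in the B class, and Eph receptors are tyrosine kinases that answer on contact, so that signals can run into both cells. Slits are large secreted proteins that repel cells through Robo receptors. Netrins are secreted, laminin-like proteins that attract through Dcc or neogenin and repel through Unc5 receptors. Outside the nervous system all of these families act in cell sorting, migration and the growth of vessels.

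Conditioned medium changed 2 of the 25 tested genes at an adjusted p below 0.05. Slit2 fell to 0.79 times its control mean, and Ntn4, which encodes netrin-4, rose to 1.23 times its control mean. Both calls depended on the settings: of 16 alternative settings, Slit2 passed in 7 and Ntn4 in 13. The share of all 11678 tested genes called was 6.53% (4.04% higher and 2.49% lower), so 2 of 25 is close to the share among all genes. At an unadjusted p below 0.05, 9 of the 25 genes passed, against 19.6% of all tested genes. The differences were small throughout, with log2 fold changes from -0.30 to 0.28. All 4 tested EphA receptors, 6 of 7 tested ephrins and 3 of 4 tested EphB receptors had a log2 fold change below 0. All 3 tested netrin-family genes (Ntn1, Ntn4 and the netrin-G gene Ntng2) and neogenin lay above 0.

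The windows upstream of the 2 genes that passed are shown because these genes changed in opposite directions. Both are given 5′ to 3′ on the coding strand from RefSeq (GRCm38.p6), from 250 to 18 bases before the RefSeq start. Capitals mark matches to the motifs searched. The Slit2 window is chr5:47982905-47983137 on the plus strand, and the Ntn4 window is chr10:93640799-93641031 on the plus strand.
Slit2: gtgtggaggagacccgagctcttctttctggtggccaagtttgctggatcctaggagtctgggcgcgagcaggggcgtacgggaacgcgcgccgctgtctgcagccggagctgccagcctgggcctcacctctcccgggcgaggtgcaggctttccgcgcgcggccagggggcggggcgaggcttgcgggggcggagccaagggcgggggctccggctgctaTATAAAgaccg
Ntn4: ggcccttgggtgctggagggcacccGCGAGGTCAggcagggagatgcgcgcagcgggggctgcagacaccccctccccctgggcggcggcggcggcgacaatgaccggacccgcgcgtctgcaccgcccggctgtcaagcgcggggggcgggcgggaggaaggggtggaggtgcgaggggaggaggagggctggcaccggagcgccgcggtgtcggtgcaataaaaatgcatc

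The motifs were searched on both strands, any overlap allowed, and each printed window held 1 match. The Ntn4 window lies within the annotated bounds of the gene, in bases not annotated as exon. Slit2 held a TATA box (TATAAA) that begins 28 bases before the start, a motif found in 11.9% of all 32851 RefSeq windows of this length. Ntn4 held the core of the antioxidant response element (TGANNNNGC), which 33.0% of all windows hold. Neither window held the core of the interferon-stimulated response element (GAAANNGAA, 6.61% of windows), a STAT site (TTCNNNGAA, 6.53%), an AP-1 site (TGANTCA, 6.41%) or a TEAD site (GGAATG, 11.9%). The GC content was 70.4% for Slit2 and 74.2% for Ntn4, against a median of 51.9% over all windows. Of the 35 genes, 31 had at least 1 RefSeq window.

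The levels of the 25 tested genes, in FPKM, spanned a wide range. FPKM is scaled to gene length, so ranks between genes also depend on the exon length used. Unc5b and the ephrin-B1 gene Efnb1 had the highest levels, followed by Slit3 and the EphB4 receptor gene Ephb4. Ntn4, Neo1 and Efnb2 came next, with ranges over the 6 libraries that overlapped one another. At the low end Efna3, Efna1 and Unc5a lay between 1.04 and 2.03 FPKM in every library, and their ranges overlapped too.

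**Figure D1:**
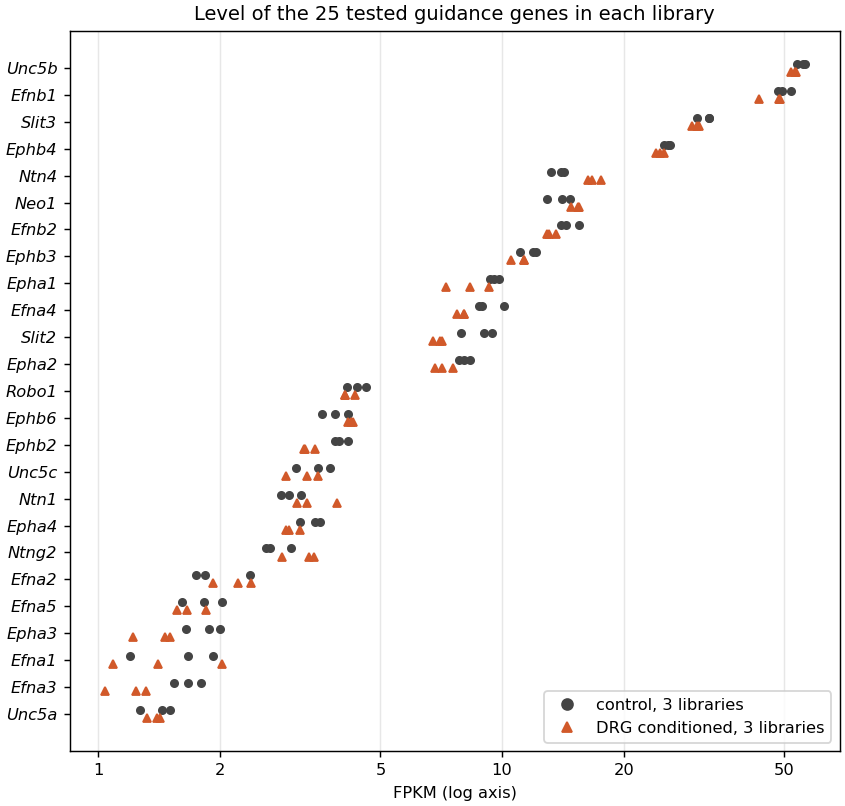
FPKM on a log axis for the 25 tested genes in each of the 3 control libraries (circles) and 3 conditioned libraries (triangles). Unc5b and Efnb1 are highest, and the groups lie apart for Ntn4, Slit2, Ephb2, Efna3 and Efna4 among others.

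The Slit ligands were the group in which a fall passed the test. Slit2 (chromosome 5, 47983138 to 48307733, mm10, plus strand) had 9.42, 9.03 and 7.93 FPKM in control replicates 1, 2 and 3 and 6.75, 7.01 and 7.08 FPKM in the conditioned replicates. All conditioned libraries lay below all control libraries, and control replicate 3 was the closest to them. The log2 fold change of Slit2 was -0.30 ± 0.06 SE (95% interval -0.45 to -0.15, adjusted p = 0.033). The call for Slit2 was lost without control replicate 1 (log2 fold change -0.25, adjusted p = 0.078), control replicate 2 (-0.28, 0.12), conditioned replicate 1 (-0.28, 0.12), conditioned replicate 2 (-0.30, 0.11) or conditioned replicate 3 (-0.31, 0.078). It was also lost with no filter on low genes (adjusted p = 0.096), with the filter at 0.1 FPKM (0.063) and without trend and robust prior (0.057). With replicate number as a block the adjusted p of Slit2 was 0.11, and the call was lost too. Slit2 passed in 7 of the 16 alternative settings, over which its adjusted p ran from 1.3e-04 to 0.12 and its log2 fold change stayed below 0.

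Slit3, the Slit with the highest FPKM, had 32.5, 32.6 and 30.4 FPKM in control and 30.3, 29.6 and 30.8 FPKM in conditioned replicates 1, 2 and 3. Its groups overlapped, and its log2 fold change of -0.07 (95% interval -0.17 to 0.02) did not pass (adjusted p = 0.40). Slit3 made up 77.0% to 81.0% of the summed Slit FPKM of a library. That sum went from 41.0 ± 1.97 to 37.4 ± 0.618 FPKM (SD, n = 3 per group). The share rests in part on gene length: the annotated exons total 25433 bases for Slit2 and 6067 bases for Slit3. In control replicates 1, 2 and 3 Slit2 had more fragments than Slit3 (5562, 6026 and 4066 against 4579, 5195 and 3719). In the conditioned replicates Slit2 had 3737, 3356 and 4229 fragments and Slit3 had 3999, 3379 and 4392. Slit1 was below the tested level, with 129 fragments over the control and 97 over the conditioned libraries. The conditioned cells also had less of the tendon fibroblast markers: 7 of 10 tested markers were lower and 0 higher, against 2.49% and 4.04% of all tested genes. Pdgfra went the other way without passing (log2 fold change 0.17, adjusted p = 0.062). The calls for Tnmd, Thbs4 and Lum were lost without control replicate 3 or conditioned replicate 1, for Tnmd also without control replicate 1 or conditioned replicate 3, and for Thbs4 and Lum also without conditioned replicate 2 (adjusted p up to 0.072). The summed marker level was 4551 to 4671 FPKM per control library and 3595 to 3694 FPKM per conditioned library, of which Col1a1 and Col1a2 made up 94.7% to 94.8%. Without those collagens it was 239 to 241 and 189 to 191 FPKM. Their part in the fall of Slit2 was not tested. In bulk libraries, fewer cells of a type and less RNA per cell cannot be told apart.

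Robo receptors bind the Slits through their extracellular domains. Robo1 was the main Robo gene, with 96.2% to 97.9% of the summed level. It had 4.61, 4.37 and 4.14 FPKM in control and 4.09, 4.08 and 4.33 FPKM in conditioned replicates 1, 2 and 3, with overlapping groups and a log2 fold change of -0.06 (adjusted p = 0.66). Robo2 and Robo3 lay below the tested level. Robo2 had 98 fragments over the control and 42 over the conditioned libraries, a ratio per sequenced fragment of 0.462 (95% exact binomial interval 0.314 to 0.670, counting error only). Its groups did not overlap, but every library was at or below 0.119 FPKM, and with no filter on low genes its adjusted p was 0.55. Robo3, which differs from the other Robos in its response to Slits, had 35 and 31 fragments.

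Of the 4 netrin and netrin-G genes, Ntn4 rose, and the other tested ones, Ntn1 and Ntng2, did not pass. Ntn4 (chromosome 10, 93640681 to 93747207, mm10, plus strand) encodes a netrin that binds laminins and is found in basement membranes. It had 13.2, 14.2 and 14.0 FPKM in control replicates 1, 2 and 3 and 17.6, 16.7 and 16.3 FPKM in the conditioned replicates. Every conditioned library lay above every control library. The log2 fold change of Ntn4 was 0.28 ± 0.05 SE (95% interval 0.17 to 0.38, adjusted p = 0.011). The call for Ntn4 was lost without conditioned replicate 1 (log2 fold change 0.25, adjusted p = 0.054) or conditioned replicate 2 (0.28, 0.051). It was also lost with replicate number as a block (0.28, 0.069). Ntn4 passed in 13 of the 16 alternatives, over which its adjusted p ran from 0.0020 to 0.069.

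Ntn1 encodes netrin-1, the founding secreted netrin. It had 2.97, 3.17 and 2.84 FPKM in control and 3.11, 3.90 and 3.28 FPKM in conditioned replicates 1, 2 and 3. Conditioned replicate 1 lay within the control range, and the log2 fold change of 0.15 (95% interval -0.04 to 0.33) did not pass (adjusted p = 0.36). Ntng2 encodes netrin-G2, a lipid-anchored relative that binds NGL proteins rather than the netrin receptors. It had 3.00, 2.60 and 2.66 FPKM in control and 2.85, 3.32 and 3.43 FPKM in conditioned replicates, overlapping, with a log2 fold change of 0.16 (adjusted p = 0.30). Ntng1 went the other way at a trace level, with 40 control and 13 conditioned fragments and overlapping groups. The summed level of netrins and netrin-Gs was 19.3, 20.0 and 19.5 FPKM in control and 23.6, 24.0 and 23.1 FPKM in conditioned replicates. Ntn4 made up 68.5% to 74.6% of it.

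Of the netrin receptors, neogenin was the one with a level above that of the controls. Neo1 encodes a relative of Dcc that also binds repulsive guidance molecules. It had 14.7, 14.1 and 12.9 FPKM in control and 14.8, 15.4 and 15.5 FPKM in conditioned replicates 1, 2 and 3. The groups were apart only narrowly, between control replicate 1 and conditioned replicate 1, and the log2 fold change of 0.12 ± 0.05 SE did not pass (adjusted p = 0.26).

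The Unc5 receptors carry the repulsive response to netrins. Unc5b, a receptor known from vessel branching, had the highest level of all 35 genes, with 53.7, 55.5 and 56.1 FPKM in control and 53.1, 53.3 and 51.9 FPKM in conditioned replicates. These groups did not overlap, yet the log2 fold change was only -0.06 (95% interval -0.14 to 0.02, adjusted p = 0.38). Unc5c had 3.75, 3.50 and 3.09 FPKM against 2.92, 3.29 and 3.51 FPKM, and Unc5a had 1.27, 1.44 and 1.51 FPKM against 1.42, 1.40 and 1.32 FPKM. Both overlapped, and the log2 fold changes were -0.07 for Unc5c (adjusted p = 0.70) and -0.01 for Unc5a (0.95). Unc5d was seen in 15 fragments over the control and 5 over the conditioned libraries.

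**Figure D2:**
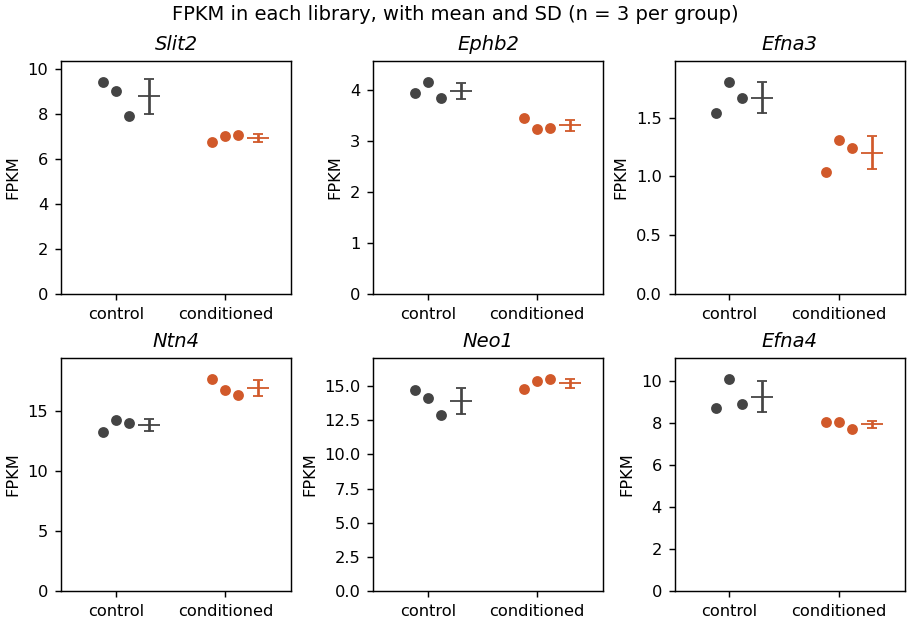
FPKM of Slit2, Ephb2, Efna3, Ntn4, Neo1 and Efna4 in each library (points), with the mean and SD beside them (n = 3 per group, axes from 0). The conditioned libraries lie below the controls for Slit2, Ephb2, Efna3 and Efna4 and above them for Ntn4 and Neo1.

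Of the 15 tested Eph and ephrin genes, 0 passed the test in limma, although 7 had an unadjusted p below 0.05, and 3 (Ephb2, Epha3 and Efnb2) passed by limma's voom on recovered fragments. A total of 13 had a log2 fold change below 0, with a median of -0.13, while the median over all tested genes was 0.0052 and 48.0% of those genes lay below 0. The conditioned libraries lay wholly below the controls for 8 of the 15 and wholly above for 0. Over all 25 tested genes of these families the counts were 10 below and 2 above, against 11.6% and 14.3% of all tested genes. These are counts over genes chosen with earlier results known, and no test was made over them.

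The EphB receptors bind ephrin-Bs. Ephb2, known from cell sorting in the gut epithelium, came closest to the threshold in this class, with 3.95, 4.16 and 3.86 FPKM in control and 3.45, 3.24 and 3.26 FPKM in conditioned replicates 1, 2 and 3. The groups did not overlap, and the log2 fold change was -0.21 ± 0.06 SE (95% interval -0.34 to -0.08, adjusted p = 0.068; 0.0035 by voom). Ephb4, the partner of ephrin-B2 in veins, was the most abundant EphB gene, with 26.0, 25.2 and 25.8 FPKM against 25.1, 24.6 and 24.0 FPKM. Its groups lay apart by a small margin, and its log2 fold change of -0.06 (95% interval -0.15 to 0.02) did not pass (adjusted p = 0.40).

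Ephb3 had 11.1, 11.9 and 12.1 FPKM against 11.3, 11.3 and 10.5 FPKM, and its log2 fold change was -0.07 (adjusted p = 0.50). Ephb6, a receptor without kinase activity, was the EphB gene with a log2 fold change above 0, at 0.10 (adjusted p = 0.41). It had 3.85, 4.16 and 3.59 FPKM in control and 4.15, 4.23 and 4.27 FPKM in conditioned replicates. Both genes overlapped between the groups. Ephb1 was nearly absent, with 11 fragments in each group.

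The 4 tested EphA receptors bind mainly ephrin-As and all lay lower, with log2 fold changes from -0.25 to -0.13. Epha3 had 2.00, 1.88 and 1.65 FPKM in control and 1.51, 1.46 and 1.22 FPKM in conditioned replicates 1, 2 and 3, without overlap (log2 fold change -0.25 ± 0.08 SE, adjusted p = 0.14; 0.015 by voom). Epha2, known from epithelial and tumour cells, had 7.83, 8.32 and 8.04 FPKM against 6.84, 7.56 and 7.10 FPKM, also without overlap (-0.15 ± 0.05 SE, adjusted p = 0.15). Epha1, the most abundant EphA gene, had 9.34, 9.56 and 9.82 FPKM against 8.33, 9.27 and 7.26 FPKM. Its conditioned libraries were more spread than the controls but stayed below them (-0.19 ± 0.08 SE, adjusted p = 0.22). Epha4, which can bind both ephrin classes, had 3.45, 3.55 and 3.16 FPKM against 3.16, 2.96 and 2.92 FPKM. Conditioned replicate 1 reached the level of control replicate 3, and the log2 fold change of -0.13 did not pass (adjusted p = 0.31).

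The summed EphA level was 22.9, 23.7 and 23.0 FPKM in control and 20.1, 21.5 and 18.8 FPKM in conditioned replicates. The EphB receptors summed to a higher level, at 44.9, 45.5 and 45.3 FPKM and then 44.0, 43.4 and 42.0 FPKM. Epha7 lay below the tested level, with 225 fragments in control and 173 in conditioned libraries. Epha8 had 3 and 1. Epha5 had 7 control and 0 conditioned fragments, and a count of 0 allows up to 3.

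The ephrin-A ligands were a low-level group apart from Efna4. Efna4 had 8.75, 10.1 and 8.93 FPKM in control and 8.05, 8.04 and 7.75 FPKM in conditioned replicates 1, 2 and 3, without overlap (log2 fold change -0.20 ± 0.06 SE, 95% interval -0.34 to -0.06, adjusted p = 0.11). Efna3 had 1.54, 1.80 and 1.67 FPKM against 1.04, 1.31 and 1.24 FPKM, also without overlap. Its log2 fold change of -0.28 ± 0.08 SE was close in size to that of Slit2 but did not pass (95% interval -0.47 to -0.09, adjusted p = 0.094). The added 1 in the logarithm understates it: the ratio of its mean FPKM was 0.72, the lowest of the 25. With 0.1 added instead, the log2 fold change of Efna3 was -0.45 (adjusted p = 0.099 by limma), and by voom it was -0.50 (0.12). Neither passed. Efna3 had 55 to 115 fragments per library.

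Efna1, Efna3 and Efna4 are neighbours on chromosome 3 between 89271733 and 89338028 (mm10, minus strand). Efna1 did not share the pattern of the other two. It had 1.20, 1.67 and 1.92 FPKM in control and 1.41, 2.03 and 1.09 FPKM in conditioned replicates, the widest spread relative to its mean among the tested genes of its class. Its log2 fold change was -0.06 (adjusted p = 0.89). Efna2 had 1.84, 1.75 and 2.37 FPKM against 1.92, 2.39 and 2.22 FPKM, and Efna5 had 1.83, 1.61 and 2.03 FPKM against 1.57, 1.85 and 1.66 FPKM. Both overlapped, and the log2 fold changes were 0.09 for Efna2 (adjusted p = 0.68) and -0.07 for Efna5 (0.73).

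The ephrin-B ligands had the highest summed FPKM of the ligand groups. Efnb1, mutated in a craniofacial and skeletal syndrome, had 48.1, 52.0 and 49.3 FPKM in control and 48.7, 48.4 and 43.3 FPKM in conditioned replicates 1, 2 and 3, overlapping (log2 fold change -0.09, adjusted p = 0.42). Efnb2, the arterial ephrin, had 14.4, 15.5 and 14.0 FPKM against 13.6, 12.9 and 13.1 FPKM. Its groups lay apart, and its log2 fold change of -0.14 ± 0.05 SE did not pass (95% interval -0.25 to -0.02, adjusted p = 0.17; 0.049 by voom). Efnb3 lay below the tested level at 0.161 to 0.491 FPKM, with 89 fragments in control and 39 in conditioned libraries, a ratio of 0.473 (95% exact binomial interval 0.316 to 0.696, counting error only). Its groups did not overlap, and with the filter lowered to a mean of 0.1 FPKM its adjusted p was 0.23.

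**Figure D3:**
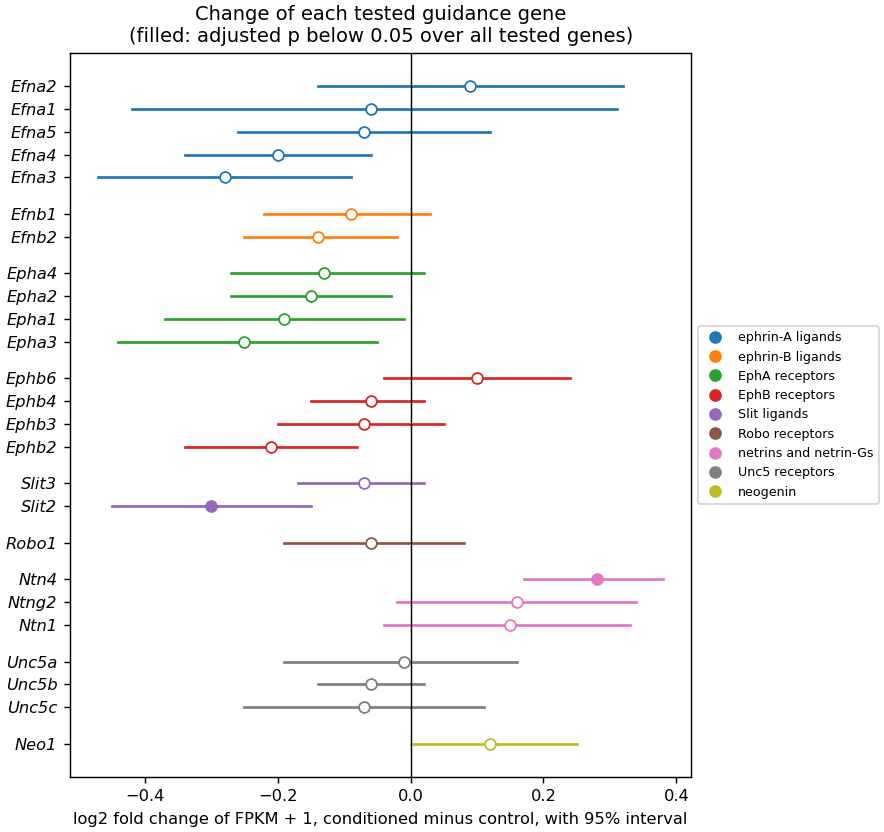
Log2 fold change of FPKM + 1, conditioned minus control, for the 25 tested genes with 95% intervals, coloured by role; filled points have an adjusted p below 0.05. Slit2 (-0.30) and Ntn4 (0.28) are filled, and most Eph and ephrin genes lie left of 0.

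**Figure D4:**
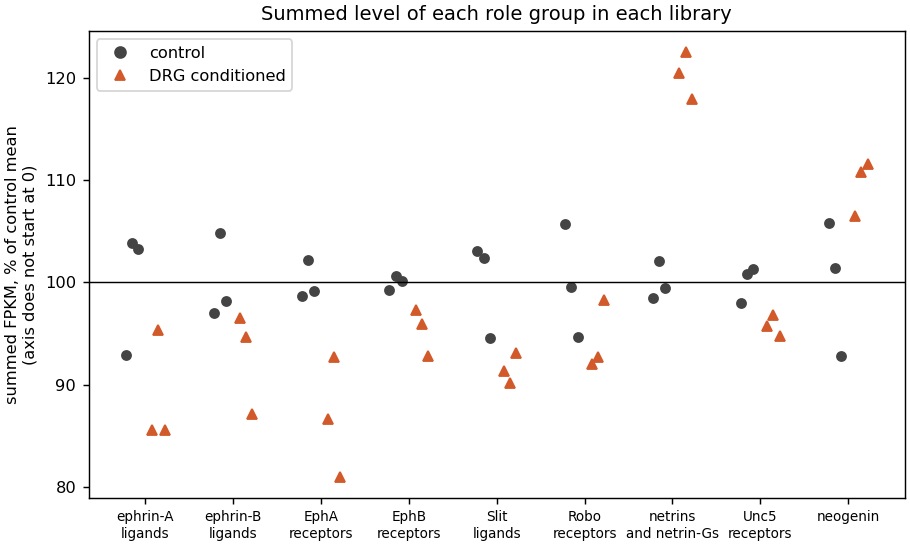
Summed FPKM of each role group in each library, as a percentage of its control mean (circles control, triangles conditioned; the axis does not start at 0). The group of netrins and netrin-Gs lies above its controls (23.5 against 19.6 FPKM on average) and the EphA group below (20.1 against 23.2 FPKM).

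Several of these genes are best known in vessels, so markers of endothelial cells were read in the same libraries. Of 9 endothelial markers in the data, 8 lay below 1 FPKM on average, among them Pecam1, at 0 to 0.0830 FPKM. Tek, a receptor for angiopoietins, was the exception: it had 6.28, 5.91 and 5.52 FPKM in control and 4.66, 4.69 and 4.16 FPKM in conditioned libraries and was lower (log2 fold change -0.33, adjusted p = 0.023). The call for Tek was lost when any single library but control replicate 3 was left out (adjusted p from 0.060 to 0.084) and with no filter on low genes. The summed endothelial level, most of it Tek, was 6.59 to 7.39 FPKM per control library and 5.55 to 5.76 FPKM per conditioned library. Which cells the guidance transcripts came from was not tested. Of 15 DRG neuron markers 12 were below the tested level, and the list summed to 29.0 to 32.5 FPKM per control library and 23.2 to 25.3 FPKM per conditioned library, most of it Tubb3. Tubb3, a neuronal tubulin that other cells can also express, was the 1 of 3 tested markers on that list that passed. It was lower, at 21.6, 23.9 and 22.2 FPKM in control and 16.3, 17.2 and 15.9 FPKM in conditioned replicates (log2 fold change -0.43, adjusted p = 0.0018), and passed in all 16 alternatives. The mural cell markers summed to 154 to 156 FPKM in control libraries against 154 to 160 FPKM, most of it Pdgfrb at 117 to 124 FPKM. Of 5 tested mural markers 1 was higher (Myh11) and 4 did not pass. Those 4 were Pdgfrb (log2 fold change 0.01), Cspg4 (0.08), Notch3 (-0.20) and Des (-0.27). Rgs5, Kcnj8 and Abcc9 were below the tested level. The glia list summed to at most 4.08 FPKM and the macrophage list to at most 8.50 FPKM in any library. For the label of the cells, Scx, the tendon transcription factor, was at 11.1 to 13.8 FPKM, while Tppp3 itself was at 0.724 to 1.12 FPKM.

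Of 56 tested genes listed as partners of these ligands and receptors, 5 passed (8.93%, against 6.53% of all tested genes). Among the 5 is Gas1, which is better known from hedgehog signalling. Among 19 tested partners of Ephs and ephrins 1 was higher, 0 lower and 18 did not pass (median log2 fold change 0.04). The gene was Itsn1, which encodes a scaffold and exchange factor of EphB signalling, at 7.23, 7.16 and 7.26 FPKM in control and 8.27, 8.59 and 8.77 FPKM in conditioned replicates (log2 fold change 0.21, adjusted p = 0.028). Its call was lost without any single library (adjusted p from 0.060 to 0.11). Adam10, the protease that sheds ephrins, and the kinases Abl1, Src and Fyn did not pass (log2 fold changes 0.05, 0.01, 0.04 and 0.13).

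Among 20 tested partners of Slits and Robos 1 was higher, 0 lower and 19 did not pass (median 0.04). Gpc1 encodes glypican-1, a heparan sulphate proteoglycan that binds Slit. It had 34.1, 34.4 and 34.8 FPKM in control and 44.1, 42.0 and 41.2 FPKM in conditioned replicates (log2 fold change 0.30 ± 0.04 SE, adjusted p = 0.0029), and it passed in all 16 alternatives. The direction of Gpc1 was thus opposite to that of Slit2. The Robo effectors Srgap1, Srgap2 and Srgap3 did not pass (log2 fold changes -0.15, -0.03 and 0.07).

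Among 17 tested partners of netrin receptors 2 were lower, 1 higher and 14 did not pass (median -0.06). Flrt2, a membrane ligand of Unc5 receptors, had 22.2, 22.3 and 20.7 FPKM in control and 16.6, 17.1 and 16.9 FPKM in conditioned replicates (log2 fold change -0.35 ± 0.04 SE, adjusted p = 0.0024). Gas1, a lipid-anchored surface protein better known as a hedgehog co-receptor, had 51.0, 53.4 and 54.5 FPKM against 74.2, 69.5 and 70.8 FPKM (0.43 ± 0.04 SE, adjusted p = 6.0e-04). Flrt2 and Gas1 passed in all 16 alternatives. Ablim1, an actin-binding protein whose relatives act downstream of Dcc, had 1.71, 1.64 and 1.62 FPKM against 1.15, 1.06 and 1.09 FPKM (-0.34, adjusted p = 0.026), and its call was lost without any single library (adjusted p from 0.065 to 0.10). Rgma and Rgmb, the ligands of neogenin, did not pass (log2 fold changes -0.04 and 0.09).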

How the data were processed

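RNA was sequenced from 6 libraries, 3 per group. The authors deposited FPKM values per gene, per the file headers, and CASAVA, HISAT2 2.0.5 and mm10 appear in the submitters' processing notes without a role for each. Not given in the sources used here are the counter, annotation release, strand setting and filters, so reads of overlapping genes cannot be told apart. Values of 24413 of 24413 genes came out as whole fragments (tolerance 0.01 fragment), giving 18881989 to 26164434 fragments per library. For 23588 genes the fragments followed from the annotated exon length. The depth implied by the FPKM scaling differed from these totals by -0.575% to 0.642%. Fragments served for depth, low genes and limma's voom as an alternative. Floors and binomial intervals cover counting error only.

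The main test was limma 3.58.1 in R 4.3.3 on log2(FPKM + 1) with eBayes (trend and robust on), two-sided, for the 11678 genes that averaged at least 1 FPKM, with Benjamini-Hochberg adjustment over all of them. The added 1 understates changes of low genes. The functions were tested on simulated data, where 40.8% of 1.25-fold and 80.2% of 1.5-fold changes were recovered. Changes of about 1.25-fold can thus fail to pass. Tables were handled with Python 3.11.15, numpy 2.4.6, pandas 2.3.3 and scipy 1.17.1, and figures with matplotlib 3.10.9. Coordinates come from GENCODE M21 (mm10) by gene ID. Alternatives changed the pseudocount, filter, scaling, prior, test, replicate block or libraries used.

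The genes and lists were chosen with earlier results of these data known. Of the partner lists 25 of 26, 22 of 23 and 22 of 27 symbols were found. Every member is accounted for, with values in every library for the tested ones, and partner genes are named where they passed, with a few others chosen for their role after their values were seen. Upstream windows are shown for genes past the threshold, without the bases that GENCODE annotates as exon.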

Additional observations from a re-analysis of the deposited data

How the results depend on the processing

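Of 387 log2 fold changes of the 25 tested genes under 16 alternatives, 368 kept direction and side of the threshold, 12 lost and 3 gained a call, and 4 changed direction. The changes of direction were all in Efna1 (-0.20 to 0.07 without 1 library) and Unc5a (-0.05 to 0.02). None came from another scaling. As reported, the test called 472 genes higher, 291 lower, 2 guidance genes and 5 partner genes. Leaving out 1 library gave 265 to 426 higher, 129 to 252 lower, 0 to 2 guidance genes and 3 partner genes each time. The lowest guidance count came without conditioned replicate 1 or conditioned replicate 2. When low genes were not filtered 165 genes were lower and 1 guidance gene was called, Ntn4. It was also 1, Ntn4, with the filter at 0.1 FPKM and without trend and robust prior. By voom 490 genes were lower, and 5 guidance and 9 partner genes were called. With the replicate block 259 genes were higher, 131 lower, 0 guidance genes and 3 partner genes were called by limma, where Slit2 (-0.30) had an adjusted p of 0.11 and Ntn4 (0.28) of 0.069; without the block 9 guidance genes had an unadjusted p below 0.05. Deviations of same-numbered libraries correlated at -0.095, -0.008 and -0.048. No label says that the replicate numbers pair the libraries. With 3 libraries per group, such correlations cannot decide whether same-numbered libraries share an animal or a culture. Below the filter, depth limits what can be seen: 10 guidance genes had 4 to 398 fragments in all 6 libraries together.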

Other observations

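Some partner genes below the tested level had groups that lay apart, and they were chosen after their values were seen. Of the 3 partner lists 6, 2 and 5 genes lay below the tested level. Among all tested genes the groups lay apart in 11.6% (lower) and 14.3% (higher). Those shares cover genes at higher levels, and none was taken for genes below the filter. Draxin, a secreted antagonist of netrin receptors, had 0.414, 0.411 and 0.486 FPKM in control and 0.663, 1.14 and 0.712 FPKM in conditioned replicates 1, 2 and 3. Flrt3, a membrane protein that binds Robo1 and Unc5 receptors, had 1.07, 0.807 and 0.795 FPKM against 0.548, 0.492 and 0.490 FPKM, the same direction as Flrt2. Flrt1 had 0.757, 0.742 and 0.719 FPKM against 0.675, 0.680 and 0.589 FPKM. Ngef and Arhgef15, exchange factors that act below Eph receptors, had 0.187, 0.244 and 0.127 FPKM against 0.0942, 0.0681 and 0.0763 FPKM, and 0.0863, 0.0941 and 0.0688 FPKM against 0.0425, 0.0574 and 0.0328 FPKM. Ngef had 72 and Arhgef15 had 56 fragments in all 6 libraries together, so counting error is large for both. None of these partner genes was in the main test.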
